A study of Mus musculus with 13 samples.

Results

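The granzyme genes Gzmb, Gzmc, Gzmd, Gzme, Gzmf and Gzmg form a cluster on mouse chromosome 14, and their transcripts were read in RNA-seq of C2C12 myoblasts. The 6 genes were taken by name from the gene column of the deposited expression table, which has 23236 rows, and each name matched 1 row. The genes were chosen by the FPKM values of the same 2 libraries, which were in view when they were proposed, so every level and difference of theirs below is a description and carries no test. FPKM is a read density, corrected for transcript length and for the number of fragments mapped in a library, so levels can be compared between genes of different length.

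C2C12 is an established mouse myoblast line that divides in rich serum and forms myotubes when serum is withdrawn. Both libraries came from cells labelled as myoblasts and from poly(A)-selected RNA, 1 labelled siNC and 1 labelled siLinc-Yy1. Such names usually stand for a non-targeting control and a knockdown of Linc-Yy1, which the series title calls a lincRNA; the labels do not spell them out. The comparison then asks which transcripts differ when that RNA is targeted. The series has 13 samples in all, and the other 2 RNA-seq libraries and the 9 ChIP-seq libraries, IgG controls included, were not analysed here.

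Granzymes are serine proteases that cytotoxic T cells and natural killer cells store in granules and deliver into target cells together with the pore protein perforin. Granzyme B cuts after aspartate and starts apoptosis by cleaving Bid and caspases. The granzymes C to G are close relatives of granzyme B found in rodents, whose genes lie beside it, and further along the same locus lie the chymases and other proteases of mast cells and basophils. Because these genes arose by duplication their transcripts resemble each other, and a read can fit several of them. How such reads were handled is not given in the sources used here. If they were divided among the genes, the value of any 1 gene is less certain than their sum.

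The upstream sequences of the members show this kinship and are given for that reason. RefSeq windows (build GRCm38.p6) were found for all 6 members, and the 250 bases before each annotated start were searched. A block of 120 bases lined up without gaps in Gzme, Gzmd, Gzmg, Gzmf and Gzmc. All 6 genes lie on the minus strand, and each sequence reads 5′ to 3′ along the gene. In the first 5 sequences capitals mark, in order, the letters TGTGGT (the core bound by RUNX factors), the 8 bases at the place of TGACGTCA (the cyclic AMP response element, bound by CREB and ATF factors) and the 6 bases at the place of TTTAAA, letters like those of a TATA box. Gzmb does not hold the block, so its last 120 bases before the start are shown, where capitals mark TGTGGT at 2 places and, between these, a match to the letters TGANTCA bound by AP-1.
Gzme, chr14:56120635-56120754: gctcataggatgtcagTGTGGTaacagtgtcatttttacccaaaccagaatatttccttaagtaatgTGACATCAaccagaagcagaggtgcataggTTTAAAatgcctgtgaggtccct
Gzmd, chr14:56132602-56132721: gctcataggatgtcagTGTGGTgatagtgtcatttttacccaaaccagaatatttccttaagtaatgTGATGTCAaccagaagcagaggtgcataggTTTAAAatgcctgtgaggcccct
Gzmg, chr14:56159604-56159723: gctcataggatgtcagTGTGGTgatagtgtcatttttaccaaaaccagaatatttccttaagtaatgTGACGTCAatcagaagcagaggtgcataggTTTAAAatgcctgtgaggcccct
Gzmf, chr14:56211437-56211556: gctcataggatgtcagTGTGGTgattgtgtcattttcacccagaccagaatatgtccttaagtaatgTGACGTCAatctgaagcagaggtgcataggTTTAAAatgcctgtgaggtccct
Gzmc, chr14:56234662-56234781: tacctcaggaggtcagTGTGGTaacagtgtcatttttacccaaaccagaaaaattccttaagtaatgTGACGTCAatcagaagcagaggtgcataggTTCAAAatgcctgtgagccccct
Gzmb, chr14:56262335-56262454: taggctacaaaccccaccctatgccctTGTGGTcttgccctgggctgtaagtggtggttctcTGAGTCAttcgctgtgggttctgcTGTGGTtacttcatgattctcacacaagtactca

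In the block, 98 of the 120 positions carried the same base in all 5 genes. Identity between pairs ran from 85.0% for Gzmf and Gzmc to 97.5% for Gzmd and Gzmg, and Gzme and Gzmd, the members with the highest FPKM, shared 95.8%. The 19 bases that end with the first pair of Ts of the marked TTTAAA place were found in the upstream windows of these 5 genes and in no other of 32851 windows, on either strand. Counted from 1 at the first base of TGACGTCA, Gzme differs by G5A and Gzmd by C4T, whereas Gzmg, Gzmf and Gzmc carry the letters unchanged. Counted from 1 at the first base of TTTAAA, Gzmc differs by T3C.

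Motif letters were searched on both strands of the 250 bases, and no match in a member overlapped another motif. All 6 members held TGTGGT, and each held it at 2 places, against 14.0% of all windows with at least 1 match and 1.27% with at least 2. Among the neighbours searched, Mcpt8 held it at -188 and -139 bases from its start and Mcpt1 at -65, and no match was listed for Gzmn. The windows of Gzme, Gzmd, Gzmg, Gzmf and Gzmc share the block above, so their matches to any motif are not independent of each other. TGACGTCA was present in 3 of 6 members and in 1.55% of all windows, TTTAAA in 4 of 6 and 12.1%, and CANNTG, the E-box that MyoD and its relatives bind, in 5 of 6 and 66.2%. TGANTCA was found in Gzmb alone among the members and in 6.75% of all windows. CCATNTT, letters bound by YY1, and TTCNNNGAA, letters bound by STAT factors, matched in 0 of 6 members, against 12.4% and 7.02% of all windows. These matches describe letters in the windows and not binding, and a missing match says only that these letters are not in the window.

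Transcripts of the cluster were present in myoblasts at low to moderate levels, with Gzme far above the rest, and each of the 6 rows stood lower in the siLinc-Yy1 library. Summed over the members, the level was 26.5 FPKM in siNC against 14.2 in siLinc-Yy1, a ratio of 0.535. If reads that fit several members were divided among them, the sum depends less on that division than any single row. It still depends on it in part, since FPKM divides by each transcript's length. Reads dropped or counted more than once would affect the sum too. Of all 20309 rows above 0 in siNC, 55.0% were lower in siLinc-Yy1. With 1 library per condition nothing here could be set against a spread between replicates, and the values speak of these libraries rather than of the conditions. In bulk RNA fewer cells that express a gene and less RNA per cell cannot be told apart.

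Gzme, at chromosome 14 from 56736456 to 56739462 (mm9, as are all positions of table rows), measured 19.5 FPKM in siNC against 10.8 in siLinc-Yy1. It made up 73.5% of the members' summed FPKM in siNC and 76.3% in siLinc-Yy1. Its FPKM ratio, siLinc-Yy1 over siNC, was 0.555. On the log2 scale with 1 FPKM added to each value, which understates differences of low genes, its change was -0.79, and 32 of the 11792 rows with a mean of at least 1 FPKM stood as low or lower.

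Gzmd, the nearest neighbour of Gzme at 56748405 to 56751430, measured 3.95 FPKM in siNC against 1.89 in siLinc-Yy1. The ratio was 0.479 and the log2 change -0.78, with 34 rows as low or lower. Gzmg, at 56775418 to 56778416, measured 1.58 and 0.829 FPKM, a ratio of 0.525 and a log2 change of -0.50. These 3 genes, at the low-coordinate end of the cluster, were the members with a mean of at least 1 FPKM.

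The other 3 members were scarce. Gzmc, at 56850238 to 56853493, measured 0.897 FPKM in siNC against 0.389 in siLinc-Yy1. Gzmf, at 56824100 to 56830244, measured 0.468 and 0.213 FPKM. Gzmb, the best known killer protease of the family, lay at the far end of the cluster at 56877695 to 56881097 and measured 0.109 FPKM in siNC against 0.0319 in siLinc-Yy1. The order of the levels was thus Gzme, Gzmd, Gzmg, Gzmc, Gzmf, Gzmb in both libraries. No spread over samples can be given for this order, since each library stands alone.

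**Figure D1:**
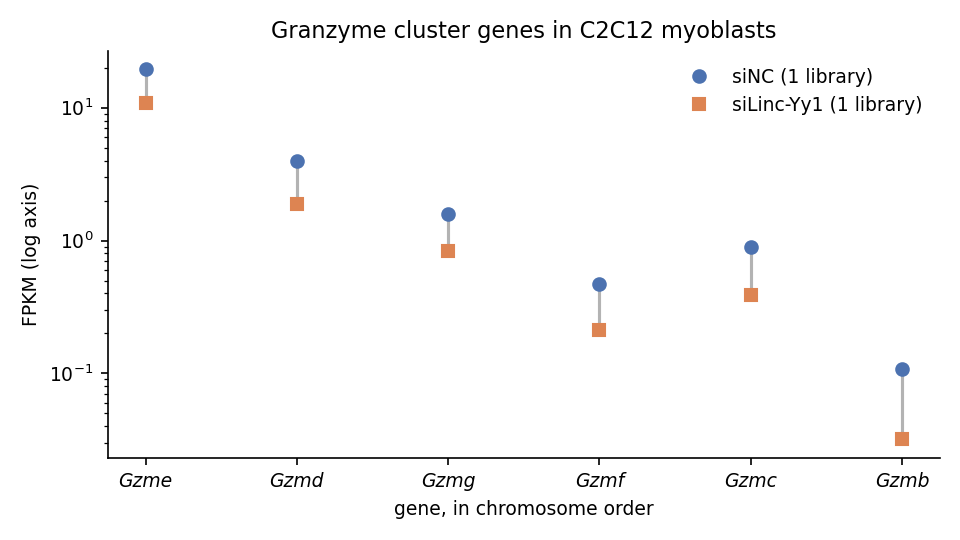
FPKM of the 6 granzyme genes in chromosome order, on a log axis, with circles for the siNC library and squares for the siLinc-Yy1 library. Every square lies below its circle, and Gzme at 19.5 and 10.8 FPKM stands above the other members in both libraries.

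How few fragments stood behind the low members can be bounded. Low FPKM values of single-exon receptor genes move in steps of 1 fragment, and these steps give a depth of about 66.1 M fragments in siNC against 47.8 M in siLinc-Yy1, provided the authors did not rescale the libraries further. A gene's fragments then come to at most its FPKM times its span, since the span includes introns. Gzme had at most 3751 fragments in siNC and 1500 in siLinc-Yy1, and Gzmd at most 766 and 264. Gzmb had at most 24 and 5, which makes it the least certain member.

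With these upper limits, the 95% counting intervals of the FPKM ratio (exact binomial) are the narrowest the data allow, and they cover counting error only. The interval was 0.521 to 0.587 for Gzme, 0.413 to 0.549 for Gzmd and 0.420 to 0.653 for Gzmg. It was 0.318 to 0.584 for Gzmc, 0.338 to 0.614 for Gzmf and 0.0859 to 0.770 for Gzmb. They treat fragments that fit several members as independent, and differences in ratio among the members were not tested. For genes whose transcript is much shorter than the span they are wider than given. The intervals as given lie below 1, but this decides nothing about the wider, unknown ones. The genes were also chosen by these same FPKM values, so a comparison with 1 is no test.

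**Figure D2:**
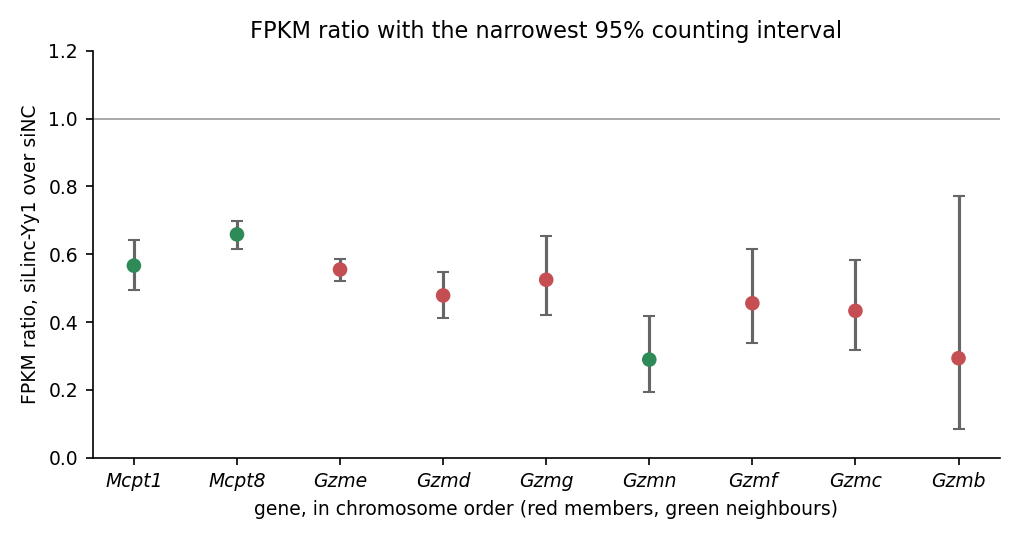
FPKM ratio of siLinc-Yy1 over siNC for the 6 members (red) and the neighbours Mcpt1, Mcpt8 and Gzmn (green) in chromosome order, with bars for the narrowest 95% counting interval. The Gzme ratio of 0.555 has the shortest bar of the members, and the Gzmb bar runs from 0.0859 to 0.770.

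By the plain FPKM ratio, the members past the filter of a mean of at least 1 FPKM were 1.80-fold (Gzme), 2.09-fold (Gzmd) and 1.91-fold (Gzmg) lower. At least 1.5-fold lower, with 1 FPKM added, were Gzme and Gzmd, 2 of the 3 that passed, against 0.517% of all 11792 rows. At least 2-fold lower, again with 1 FPKM added, were 0 of the 3, against 0.178% of all rows. Over all 6 members the median log2 change was -0.47, against -0.0063 over the 20997 rows above 0 in either library. For the 3 members past the filter it was -0.78, against -0.021 over all rows past it. The authors' deposited table called Gzme and Gzmd lower, 2 of the 6 members, with q-values of 0.00504 and 0.00797. In that deposited table, 0.327% of 14366 rows with status OK were called lower. The authors' deposited table gives q-values of 0.128 for Gzmc, 0.134 for Gzmg and 0.541 for Gzmf, none of them called, and Gzmb is marked as not tested there.

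Low rows scatter more between the libraries, so the plain FPKM ratio of each member was also read beside rows of its own level, in bands set with the members' values known. Among 4650 rows with a mean of 5 to 20 FPKM the central 95% of ratios ran from 0.757 to 1.29, and Gzme at 0.555 lay below it. Among 2634 rows of 1 to 5 FPKM it ran from 0.602 to 1.63, and Gzmd at 0.479 and Gzmg at 0.525 lay below it. Among 2217 rows of 0.2 to 1 FPKM it ran from 0.343 to 2.33, with Gzmf at 0.456 and Gzmc at 0.433 inside. Among 2221 rows of 0.05 to 0.2 FPKM it ran from 0.177 to 4.19, with Gzmb at 0.294 inside. All 6 members were at least 1.5-fold lower by the plain ratio, as were 0.624%, 5.28%, 13.9% and 21.1% of the rows in these bands, from the highest band to the lowest.

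**Figure D3:**
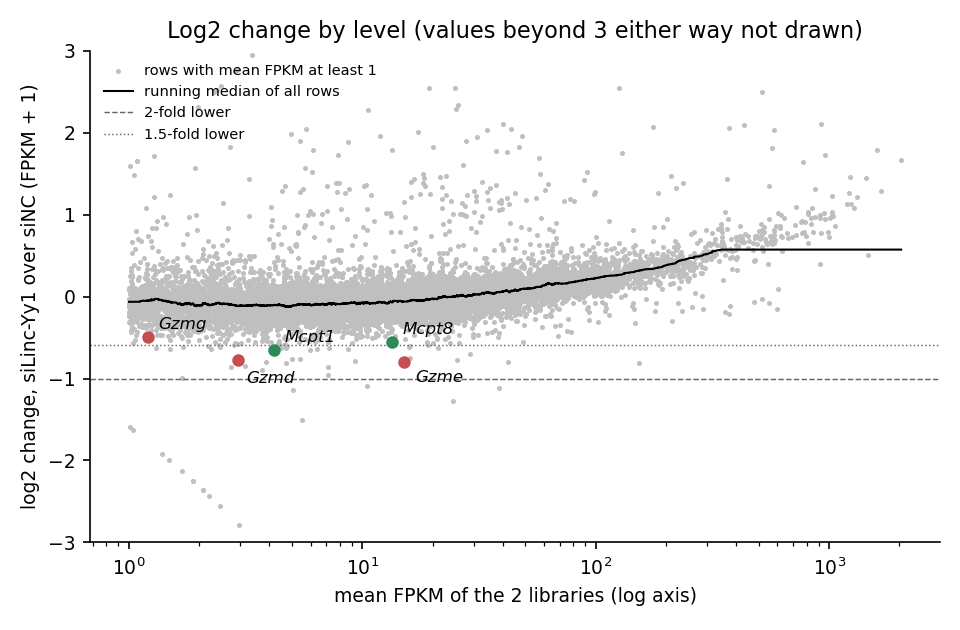
Log2 change (siLinc-Yy1 over siNC, 1 FPKM added to each), against the mean FPKM on a log axis, for rows with a mean of at least 1 FPKM; red points are granzyme members and green points are neighbours in the locus, with dashed and dotted lines at 2-fold and 1.5-fold lower. Gzme at -0.79 and Gzmd at -0.78 lie under the dotted line, and Gzmg at -0.50 lies just above the dotted line. All 3 lie below the running median of all rows (black line).

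The cluster spans 144.6 kb from Gzme to Gzmb, and 10 more rows of the protease locus lie beside or between the members. Mcpt8, a protease that marks basophils, measured 16.1 FPKM in siNC against 10.6 in siLinc-Yy1, a ratio of 0.659. Mcpt1, a chymase of mucosal mast cells, measured 5.34 and 3.02 FPKM, a ratio of 0.567. The granzyme gene Gzmn, which lies between Gzmg and Gzmf, measured 0.290 and 0.0839 FPKM. Cma1, the connective tissue mast cell chymase at the edge of the locus, measured 0.738 and 0.494 FPKM. In these 4 the siLinc-Yy1 library was again the lower. Mcpt1 had a q-value of 0.0599 and Mcpt8 of 0.168 in the authors' deposited table, with neither called.

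Of the remaining 6 rows, Mcpt4, another mast cell chymase, ran the other way, with 0.183 FPKM in siNC against 0.357 in siLinc-Yy1, at most 30 and 42 fragments. Mcpt-ps1 stood at 0.324 and 0.129 FPKM, Mcpt9 at 0.252 and 0.238 FPKM, Cma2 at 0.147 and 0.122 FPKM and Mcpt2 at 0.0603 and 0.0120 FPKM. Ctsg, cathepsin G of neutrophils, stood at 0.0166 FPKM in siNC, at most 3 fragments, and was listed at 0 in siLinc-Yy1. Over the 16 rows of the locus from Cma1 to Gzmb, 15 were lower in siLinc-Yy1, against 55.0% of all 20309 rows above 0 in siNC. Of the 29 flanking rows within 500 kb of the cluster, outside the locus, 21 were lower. The 16 rows include the 6 members, which were chosen by these same values. The summed level of the 16 rows was 49.9 FPKM in siNC against 29.2 in siLinc-Yy1, a ratio of 0.585. Gzme and Mcpt8 were the main part of that sum in both libraries.

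Rows within 500 kb on either side of the cluster, outside the locus, were closer to equal. Of 29 flanking rows 20 had a mean of at least 1 FPKM, with a median log2 change of -0.065 and a range from -0.37 (Cideb) to 0.31 (Nedd8). The flanking row nearest to Cma1, Sdr39u1, lies 41.2 kb from it and measured 12.5 FPKM in siNC against 12.4 in siLinc-Yy1. On the other side the next row past the filter was Cenpj, a centriole protein gene, at 9.29 and 7.52 FPKM. The 5 locus rows past the filter (Gzme, Gzmd, Gzmg, Mcpt1 and Mcpt8) ranged from -0.79 to -0.50, below every one of the 20 flanking rows. With 1 library per condition this separation was not tested. The granzymes among the 5 rows were chosen by these same values, so their place below the flanking rows was partly fixed by that choice. Gzmg passed the filter only through its siNC value, 1.58 FPKM against 0.829 in siLinc-Yy1.

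**Figure D4:**
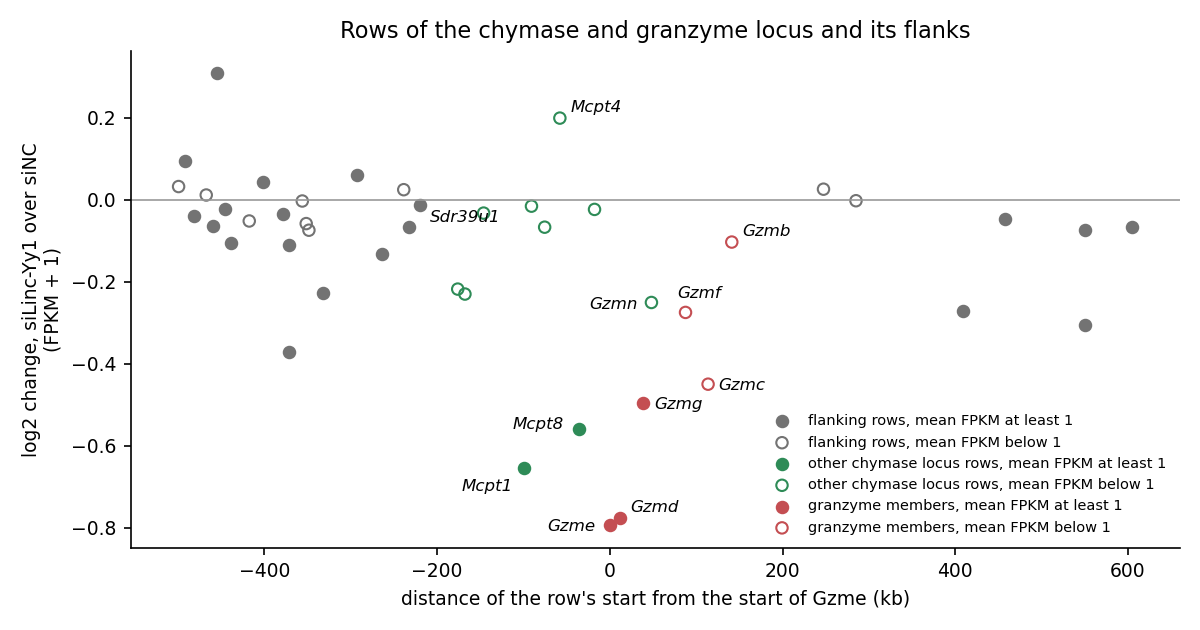
Log2 change (siLinc-Yy1 over siNC, 1 FPKM added to each), against distance from the start of Gzme in kb, for granzyme members (red), the other rows of the protease locus (green) and flanking rows (grey); filled points have a mean of at least 1 FPKM and open points less, where the added 1 FPKM pulls values towards 0. The 5 filled locus points lie between -0.79 and -0.50, and the filled flanking points between -0.37 and 0.31.

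Because granzymes are products of lymphocytes, markers of other cell types were read in the same libraries. Of 20 markers of cytotoxic lymphocytes, 15 stood below 0.2 FPKM in both libraries. Among these, Ptprc, the pan-leukocyte antigen CD45, measured 0.0226 FPKM in siNC against 0.0101 in siLinc-Yy1. The perforin gene Prf1 stood at 0.124 and 0.122 FPKM, and Klrd1 was listed at 0 in both. Other markers of the list stood higher, with Lck at 0.832 and 1.11 FPKM, Cd8a at 0.553 and 0.563 FPKM and Cd3e at 0.239 and 0.363 FPKM. Nkg7, Gzma and Gzmk were listed at 0 in siLinc-Yy1 and stood at 0.0420, 0.0193 and 0.0432 FPKM in siNC. The list summed to 9.33 FPKM in siNC against 9.27 in siLinc-Yy1, largely from Cd247 (4.87 and 3.63 FPKM) and Cd3d (1.97 and 2.92 FPKM), subunits of the T cell receptor complex, which lay in opposite directions.

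Of 10 mast cell markers, 6 stood below 0.2 FPKM in both libraries, among them the receptor gene Kit at 0.0279 and 0.0294 FPKM. Fcer1a, the IgE receptor chain, and Mrgprb2 were listed at 0 in both. The list summed to 12.9 FPKM in siNC against 10.5 in siLinc-Yy1, from Tpsab1, a tryptase (6.21 and 5.78 FPKM), and Hdc, which makes histamine (5.62 and 3.65 FPKM), so Hdc was lower in the same library as the granzymes. The log2 change of Hdc was -0.51, within the range of the members past the filter, and its part in the result was not tested. All 8 myoblast markers passed the filter, from Musk at 6.67 and 6.37 FPKM to Des, the muscle intermediate filament desmin, at 322 and 487 FPKM. Myf5 measured 18.8 and 21.9 FPKM, Itga7, a laminin-binding integrin chain, 117 and 139 FPKM and Chrna1, an acetylcholine receptor subunit, 70.7 and 82.4 FPKM, all on the higher side in siLinc-Yy1. At the levels of Des, Itga7 and Chrna1, though not of Myf5, the running median of all rows lay on that side too. Myod1, which commits cells to muscle, stood at 62.5 and 67.0 FPKM and Cdh15, M-cadherin, 98.4 and 99.0 FPKM, so the labelled cell type was borne by its markers.

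The machinery that granzymes work with in lymphocytes was present only in part. Of 13 genes of granule release and processing, 9 passed the filter, 5 higher and 4 lower, with a median log2 change of 0.0037. Ctsc, the protease that activates granzymes, measured 0.101 and 0.124 FPKM, and Srgn, the granule proteoglycan serglycin, 0.358 and 0.175 FPKM. Calr, the chaperone calreticulin that also sits in granules, at 372 and 614 FPKM, Ctsl at 191 and 266 FPKM and Lamp1 at 180 and 244 FPKM differed most, all higher in siLinc-Yy1, the side on which the running median of all rows lay at such levels. Rab27a, which docks granules at the membrane, measured 1.29 and 1.05 FPKM, and Igf2r, a receptor reported to take up granzyme B, 15.5 and 13.8 FPKM. Of the 9 genes past the filter, 0 were at least 1.5-fold lower with 1 FPKM added, against 0.517% of all 11792 rows past it. A list this short would rarely hold such a row. Srgn, below the filter, was lower in the same library as the granzymes, and its part in the result was not tested.

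Serpins that inhibit granzymes were expressed, and Serpinb6a and Serpinb9b stood above every granzyme row in both libraries. Serpinb9, the inhibitor of granzyme B that shields lymphocytes from their own granules, measured 11.8 FPKM in siNC against 10.8 in siLinc-Yy1, and its relative Serpinb9b measured 44.5 and 49.9 FPKM. Serpinb6a stood at 207 and 251 FPKM and Serpinb6b at 8.39 and 6.53 FPKM. Of the 11 serpins 5 passed the filter, 3 higher and 2 lower, and none of the 5 differed by 1.5-fold. Of all 11792 rows past the filter, 0.517% were at least 1.5-fold lower. The secreted serpin Serpina3n, which can block granzyme B, measured 0.160 and 0.0529 FPKM.

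All 12 cleavage targets of granzyme B on the list passed the filter, 8 lower and 4 higher, with a median log2 change of -0.11. None differed by 1.5-fold, and only 0.517% of all 11792 rows past the filter were at least 1.5-fold lower. Bid, whose cut form opens mitochondria, measured 37.6 and 41.9 FPKM, and Dffa, the inhibitor of the caspase-activated nuclease, 10.4 and 11.8 FPKM. Mcl1, a survival protein, measured 32.9 and 28.0 FPKM, and Casp8, the initiator caspase of death receptors, 20.5 and 18.3 FPKM. Of 18 regulators known for granzyme B in lymphocytes 11 passed the filter, 7 lower and 4 higher, with a median of -0.080. Runx3, which drives cytotoxic genes, measured 19.5 and 22.8 FPKM, and its partner Cbfb 28.2 and 25.6 FPKM. The T-box factor Tbx21 stood at 0.0185 and 0.00857 FPKM and Eomes at 0.121 and 0.180 FPKM. Il2ra, a chain of the interleukin 2 receptor, measured 0.944 and 1.23 FPKM and Stat5b, which acts below it, 10.6 and 9.66 FPKM. No gene of the granule, serpin, target or regulator lists was called in the authors' deposited table. There 0.327% of 14366 rows with status OK were called lower, so lists this short would rarely hold such a call.

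**Figure D5:**
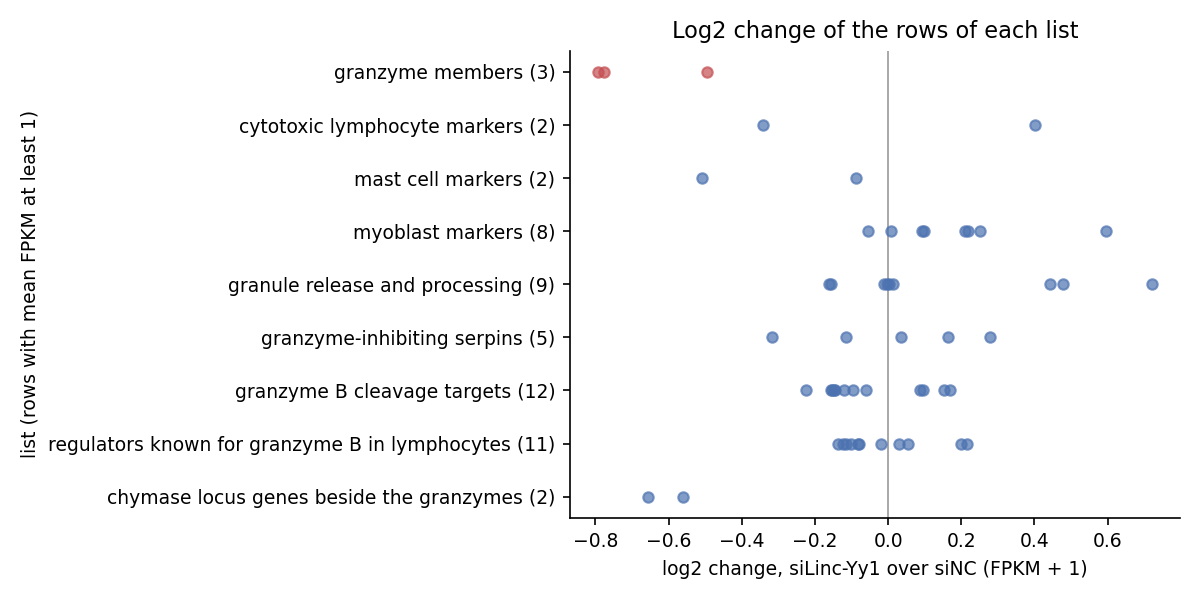
Log2 change (siLinc-Yy1 over siNC, 1 FPKM added to each), 1 point per gene with a mean of at least 1 FPKM, for the granzyme members (red) and each gene list, with the number of points in parentheses. The 3 members lie between -0.79 and -0.50, and Mcpt1 and Mcpt8 in the bottom line at -0.66 and -0.56. The genes of the serpin, target and regulator lists lie between -0.32 and 0.28. The remaining lists spread further, from Hdc of the mast cell list at -0.51, within the members' range, to Calr of the granule list at 0.72.

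The rows most like Gzme, by distance in log2(FPKM + 1) over the 2 libraries, were Igtp, Cdkn2d and Hspa1a, at 0.118, 0.173 and 0.195. Igtp, an interferon-inducible GTPase, measured 20.3 FPKM in siNC against 11.7 in siLinc-Yy1. Cdkn2d, an inhibitor of cyclin-dependent kinases, measured 19.4 and 12.3 FPKM, and Hspa1a, an inducible heat shock protein, 19.5 and 12.5 FPKM. Likeness over 2 libraries says only that both values are close.

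The targeted RNA was scarce in both libraries, and its row lincYy1 measured 0.360 FPKM in siNC against 0.227 in siLinc-Yy1, at most 26 and 12 fragments. The narrowest counting interval of the ratio, 0.293 to 1.31, holds 1, so a lower level of the target was not resolved and the label of the siLinc-Yy1 library is not checked by it.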

How the data were processed

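RNA-seq libraries of C2C12 myoblasts labelled siNC and siLinc-Yy1 were compared, 1 library each. The deposited values are FPKM that the authors estimated per gene with Cuffdiff, per the file headers, and the p-values and q-values are those of the authors' own Cuffdiff test on this library pair, per the file headers. Build mm9, Cuffdiff 2.0.4, Cufflinks 2.1.1 and TopHat2 2.0.4 are named in the submitters' processing notes. For annotation, scaling between libraries, strand use and multiply mapped reads, the method is not given in the sources used here. Of 2 byte-identical copies of the table, the first was used. The header carries siNC and siLinc-Yy1 in place of the condition columns, and the FPKM columns were taken in that order.

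The members and lists were chosen with earlier results of these data known. The change was log2(FPKM + 1) in siLinc-Yy1 minus log2(FPKM + 1) in siNC, counted among rows with a mean of at least 1 FPKM. No test was run, since each condition has 1 library. Depth was read from 256 (siNC) and 164 (siLinc-Yy1) receptor rows at the step of 1 fragment. Within 0.02 fragments, 58.0% and 49.2% of 631 and 530 receptor rows came out whole, too few for a test on counts. The named genes were all members, the rows of the protease locus, up to 4 of each list by absolute change with the defining markers listed at 0, and the 3 rows nearest to Gzme. The rule also takes all rows within 500 kb of the cluster, of which the 29 flanking ones are given as counts and a range with 4 of them named. Further genes were picked with their values known. The script for the size rule was tested on simulated data with known changes before use. Python 3.11.15, pandas 2.3.3, numpy 2.4.6 and scipy 1.17.1 were used.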

Additional observations from a re-analysis of the deposited data

How the results depend on the processing

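The members and their sum stayed lower in siLinc-Yy1 under every alternative run, but for most of these the direction was fixed beforehand. An added constant, a filter, the restriction to status OK and the plain ratio cannot reverse it. Rescaling to equal summed FPKM lowered the siLinc-Yy1 values further. Only subtracting the median or the running median of all rows could have acted against it. The log2 change of Gzme ranged from -1.09 to -0.63, and that of the sum was -0.86 as reported, -0.72 with 5 FPKM added and -1.16 after rescaling to equal summed FPKM, which moved the median of all rows to -0.30. The members' median, -0.47 as reported, was -0.86 with 0.1 FPKM added, -0.15 with 5 FPKM added, -0.58 after that rescaling and -0.79 at a mean of at least 5 FPKM, where Gzme alone was left. By the plain FPKM ratio without a filter, an alternative chosen after seeing the data, it was -1.10. Members at least 1.5-fold lower numbered 2 as reported, 1 at a mean of at least 5 FPKM, 1 with 5 FPKM added, 3 with 0.1 FPKM added, 3 after rescaling and 6 by the plain ratio. Members at least 2-fold lower numbered 0 as reported, 1 with 0.1 FPKM added, 1 after rescaling and 4 by the plain ratio, and the authors' deposited table called 2. The added constant and the filter act on the low members by construction. Gzmb, at most 24 and 5 fragments, is limited by depth. No paired analysis was possible because each condition has 1 library.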
